A study of Mus musculus with 2 samples.

Results

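The interferon regulatory factors (IRFs) are a family of transcription factors, and 8 of its genes are described here, Irf1, Irf2, Irf3, Irf4, Irf5, Irf7, Irf8 and Irf9. They were taken by gene name from the annotation of the arrays, which carry 16 probes for them, 2 per gene. All 8 genes were among the 15715 genes measured on both arrays. Expression was measured in monocytes of mouse spleen, gated on CD11b and Ly6C antibody staining in a cell sorter, on 1-colour Agilent arrays. One array carries RNA of monocytes from sham-operated ICR mice and the other from 5/6 nephrectomized (5/6Nx) ICR mice, both collected 8 weeks after surgery. ICR is an outbred stock, and a 5/6 nephrectomy removes most of the kidney tissue to model chronic kidney disease. The age of the mice and the number behind each RNA sample are not stated in the labels. With 1 array per group no difference below has a replicate check, and no p-value was computed.

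IRF proteins bind related DNA elements through an N-terminal domain with conserved tryptophans. Irf3, Irf5 and Irf7 encode factors that lie inactive in the cytoplasm until kinases downstream of sensors of microbial nucleic acids and lipids phosphorylate them, and Irf3 and Irf7 then switch on interferon genes. Irf9 encodes the DNA-binding part of ISGF3, the complex that carries the signal of the type I interferon receptor. Irf1 is induced by interferon gamma and activates its target genes, while IRF2 binds the same elements and was first described as its antagonist. Irf4 and Irf8 encode factors of blood cell lineages that bind DNA together with partners such as PU.1 and BATF, and IRF8 is needed for the development of monocytes and several dendritic cells.

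A value is the log2 intensity of a probe minus that of its array's 75th percentile, so 0 marks a probe as bright as that percentile. A probe was called detected where the scanner software put it well above background, and a gene was measured where a probe was detected in both samples. A difference is the 5/6Nx value less the sham value, in log2, and each gene is represented by the brighter of its 2 probes. Of the 8 IRF genes, 5 were higher in 5/6Nx monocytes by 2-fold or more, as were 12.3% of all measured genes. None was lower by that much, against 10.9% of all measured genes, so that 5 of 8 lay past 2-fold in either direction against 23.2%. Irf7 stood out with 7.41, followed by Irf1 with 4.45 and Irf4 with 4.41, and these 3 were at least 8-fold higher, as were 2.54% of all measured genes. Irf9 and Irf2 differed by 1.87 and 1.42. Irf5, Irf8 and Irf3 lay within 2-fold, at 0.59, 0.24 and -0.18. The median over the 8 genes was 1.64, against -0.12 over all measured genes.

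**Figure D1:**
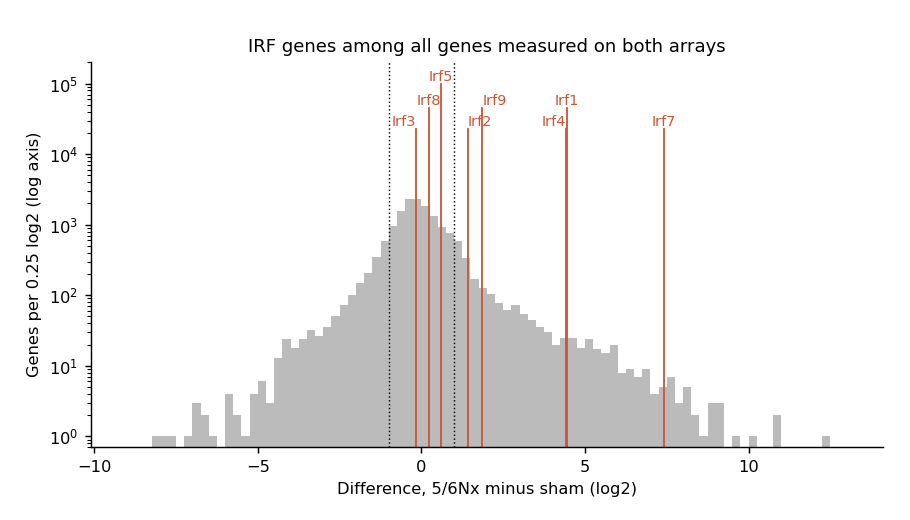
Histogram of the difference between the arrays (5/6Nx minus sham, log2, horizontal axis) over the 15715 genes measured on both, with the number of genes per bin on a log axis. Lines mark the 8 IRF genes by their brighter probe and dotted lines mark 2-fold. Irf3, Irf8 and Irf5 lie within the bulk of genes, Irf2 and Irf9 on its upper flank, and Irf4, Irf1 and Irf7 in the upper tail.

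The size of a difference depends on the scaling between the arrays. Setting the spike-in probes equal adds 0.43 to every difference and moves the median of all genes from -0.12 to 0.31, and median scaling moves it to -0.27. Of the genes at least 2-fold apart, 52.8% were higher on the 5/6Nx array, a share that was 40.8% under median and 79.5% under spike-in scaling. The count of IRF genes past 2-fold was 5 higher and 0 lower with median scaling, where 9.79% of all genes were higher and 14.2% lower. With spike-in scaling it was 6 and 0, against 21.2% and 5.47%, and with normexp, a model of signal plus background, 5 and 0, against 7.41% and 7.87%. Relative to the median of all genes, the IRF differences are the same under median and spike-in scaling. Each of the 16 IRF probes has 1 spot. The scanner software's own error of a difference ranged from 0.20 to 0.50 over these probes. Among 283 probes printed several times and detected in both samples, the median SD of the difference between spots was 0.0372. Both errors leave out labelling, sorting and the animals.

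The interferon-inducible activators were Irf7, Irf1 and Irf9. The brighter Irf7 probe (chromosome 7, 148449104 to 148449163, mm9) gave a processed intensity of 999 in sham and 210032 in 5/6Nx monocytes. That is a 169.8-fold higher signal after scaling. The other Irf7 probe (chromosome 7, 148450664 to 148451014) read 54.7 and 13448, a difference of 7.63. Both probes therefore gave a far higher signal on the 5/6Nx array, and their differences lay 0.22 apart. Irf7 ranked 30 from the top among the 15715 measured genes. The dimmer probe and the dimmer Irf1 probe are shown because their 60 bases cover 351 and 146 bases of the genome, so each joins sequence on both sides of an intron and reads spliced RNA.
Irf7 probe: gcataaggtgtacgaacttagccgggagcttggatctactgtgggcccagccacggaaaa
Irf1 probe: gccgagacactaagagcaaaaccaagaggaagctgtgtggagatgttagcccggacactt

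Irf1 read 2680 in sham and 72692 in 5/6Nx monocytes with its brighter probe (chromosome 11, 53590746 to 53590805, mm9), a 21.9-fold higher signal. With the probe across the splice junction (chromosome 11, 53587446 to 53587591) it read 73.7 and 1753, a difference of 4.26. Both probes were detected in both samples and differed by 0.19 in their differences. With normexp the dimmer probe gave 3.44, and the dimmer Irf7 probe 6.54. Irf9 read 1605 and 7246 with its brighter probe (chromosome 14, 56228806 to 56228865) and 650 and 2553 with the other, 550 bases away. The differences were 1.87 and 1.67, or 3.65-fold and 3.17-fold. Both Irf9 probes were thus higher on the 5/6Nx array, and the brighter one differed by 5.54 less than that of Irf7.

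Irf2, the counterpart of Irf1 at shared elements, read 574 in sham and 1907 in 5/6Nx monocytes (chromosome 8, 47932486 to 47932545, mm9). The difference of 1.42 is a 2.68-fold higher signal. Its other probe belongs to another transcript model and lies 39129 bases away (chromosome 8, 47893357 to 47893416). It read 185 and 581 and differed by 1.34, so the probes lay 0.08 apart, the closest pair of the 8 genes. The difference of Irf1 exceeded that of Irf2 by 3.03.

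**Figure D2:**
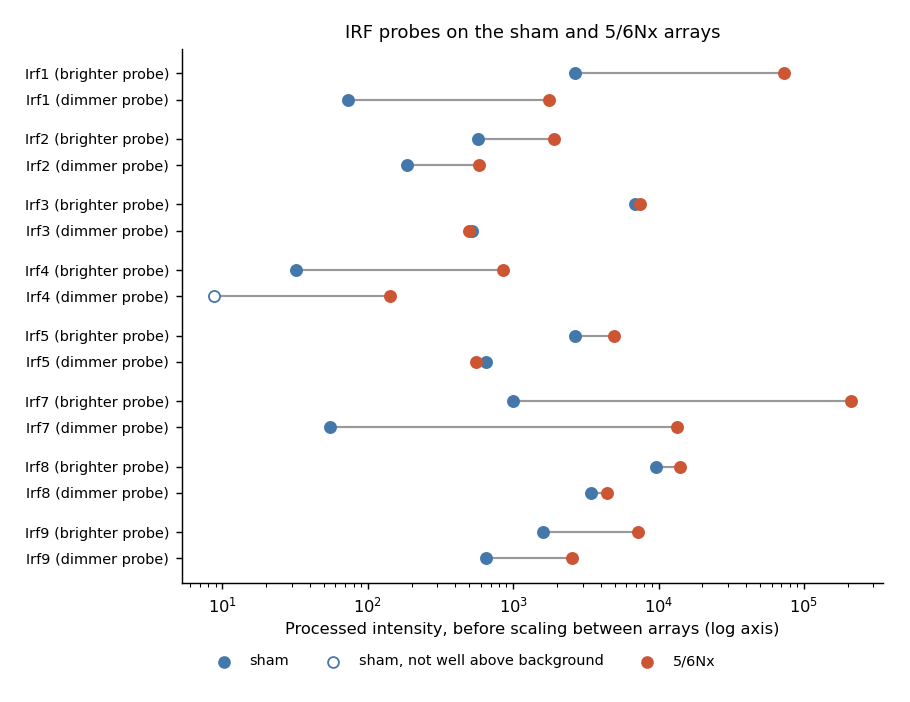
Processed intensity of the 16 IRF probes (log axis, before scaling between the arrays) on the sham and the 5/6Nx array, with a line joining the 2 values of a probe and 1 spot behind each point. An open point marks a signal not well above background. Both probes of Irf1, Irf2, Irf4, Irf7 and Irf9 are brighter on the 5/6Nx array, and those of Irf3 have nearly the same signal on both.

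Irf3 and Irf5 encode factors that are activated by phosphorylation. The brighter Irf3 probe (chromosome 7, 52257700 to 52257759, mm9) read 6837 in sham and 7490 in 5/6Nx monocytes. After scaling the difference was -0.18, smaller than the software error of 0.20. The other probe (chromosome 7, 52255810 to 52255869) read 519 and 499 and differed by -0.36. Both Irf3 probes were slightly lower after scaling, and the sign turned with spike-in scaling, at 0.25, and with loess scaling, at 0.11. The difference of Irf7 exceeded that of Irf3 by 7.58. The arrays read RNA only and do not show whether the IRF3 protein was phosphorylated.

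Irf5 was the one gene of the 8 whose probes differed in sign. The brighter probe (chromosome 6, 29486901 to 29486960, mm9) read 2645 in sham and 4914 in 5/6Nx monocytes, a difference of 0.59 or 1.5-fold. The other (chromosome 6, 29491799 to 29491858), named Irf5 in the annotation through a cDNA clone, lies 4898 bases further along the chromosome. It read 650 and 560, a difference of -0.53. The mean of both probes was 0.03, and with spike-in scaling the brighter probe came to 1.02, just past 2-fold. These data give no single direction for Irf5.

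The lineage factors Irf4 and Irf8 had unequal differences. The brighter Irf4 probe (chromosome 13, 30858532 to 30858591, mm9) read 32.1 in sham and 847 in 5/6Nx monocytes, a 21.3-fold higher signal. The other Irf4 probe (chromosome 13, 30856460 to 30856519) read 8.75 in sham monocytes, not well above background, and 143 in 5/6Nx monocytes, which is at least 9.05-fold higher. The size of the Irf4 difference depended on the background correction. With normexp the difference was 3.01 in place of 4.41 for the brighter probe and 1.27 in place of 3.72 for the other. Both probes were still higher on the 5/6Nx array, by at least 2-fold.

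Irf8 was bright on both arrays. Its brighter probe (chromosome 8, 123280324 to 123280383, mm9) read 9651 in sham and 14072 in 5/6Nx monocytes, a difference of 0.24. The other (chromosome 8, 123267009 to 123267068), which belongs to an Ensembl transcript 13315 bases away, read 3420 and 4452, a difference of 0.07. Irf8 thus differed by 1.18-fold and 1.05-fold after scaling, and the difference of Irf4 exceeded it by 4.18. The highest value of Irf8 over 11 other processing settings was 0.67, with spike-in scaling.

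**Figure D3:**
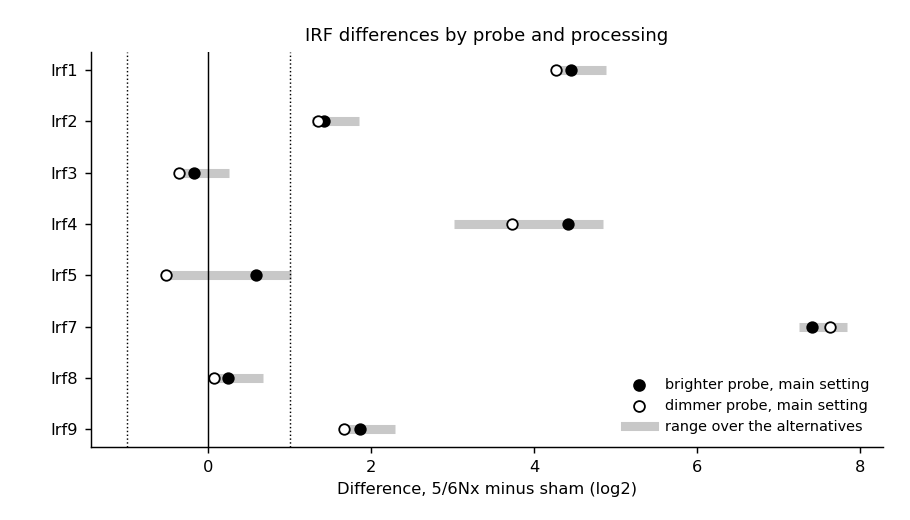
Difference between the arrays (5/6Nx minus sham, log2) for the brighter and the dimmer probe of each IRF gene, with a bar for the range over 11 alternative processing settings and dotted lines at 2-fold. Irf1, Irf2, Irf4, Irf7 and Irf9 stay above 2-fold along their whole bar, while the bars of Irf3 and Irf5 cross 0.

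Irf4 and Irf8 are also expressed in B cells, plasma cells, T cells or dendritic cells, so markers of these cells were read beside them. In bulk RNA, fewer cells of a type and less RNA per cell cannot be told apart. Of the 10 T cell markers 8 were measured on both arrays, 7 of these were higher in 5/6Nx monocytes by 2-fold or more and none lower, and the median was 5.42. Cd3g and Cd3d, chains of the T cell receptor complex, differed by 6.31 and 6.19, and Cd8a and Trat1 were detected in 5/6Nx monocytes alone. Cd3g and Cd3d were dim on the sham array, with signals of 23.9 and 54.2. With normexp they came to 4.41 and 5.10, and the median of the list to 4.44. The T cell markers summed to 3.09 times the 75th percentile intensity in sham and 60.7 times in 5/6Nx monocytes. All 3 measured NK cell markers were higher, Il2rb at 7.67, Tbx21 at 3.36 and Prf1 at 3.20, or 6.34, 2.90 and 2.61 with normexp. The other 7, namely Ncr1, Klrb1c, Klrd1, Klrk1, Eomes, Gzmb and Nkg7, were detected in 5/6Nx monocytes alone, and the sums were 0.733 and 55.7.

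Of the 7 measured B cell markers 3 were higher and none lower, with a median of 0.95, Cd79b at 1.92, Bank1 at 1.38 and Ebf1 at 1.36. With normexp Bank1 and Ebf1 came to 0.56 each, under 2-fold, which leaves 1 of 7 with a median of 0.56, while spike-in scaling put 6 of 7 past 2-fold. Cd79a and Blk were detected in 5/6Nx monocytes alone, at least 1.26-fold and 2.9-fold higher, and the sums of the list were 1.93 and 4.37. Plasma cell markers had 1 of 4 measured genes higher and 1 lower, with Sdc1 at -2.10 and Prdm1 at 1.18. The other 4, Jchain, Mzb1, Tnfrsf17 and Derl3, were detected in 5/6Nx monocytes alone. They were at least 1857-fold, 175-fold, 3.63-fold and 126-fold higher, bounds that were not recomputed with normexp. The sums of the list were 44.2 and 116. Xbp1 made up 34.7 and 42.6 of these, and the other markers of the list summed to 9.57 and 73.3. Conventional dendritic cell markers had 3 of 5 higher and none lower, Itgae at 4.43, Batf3 at 4.28 and Dpp4 at 1.63. With normexp Dpp4 came to 0.61, which leaves 2 of 5 higher with a median of 0.61 in place of 1.63, while spike-in scaling put all 5 past 2-fold. Of the others, Clec9a and Zbtb46 were detected in 5/6Nx monocytes alone and Cd209a on the sham array only, and Xcr1 was detected in neither. The sums were 1.21 and 5.70. Plasmacytoid dendritic cell markers had 1 of 6 higher and none lower, with Bst2, itself an interferon-induced gene, at 5.70 and Ccr9 at 0.85. Spib and Ly6d were detected in 5/6Nx monocytes alone, and the sums were 245 and 282. Siglech alone made up 229 and 199.9 of these, and the other markers of the list summed to 15.5 and 82.5. Of that remainder the interferon-induced Bst2 made up 1.37 in sham and 70.9 in 5/6Nx monocytes, so the rise without Siglech is that of Bst2. The part of these cells in the IRF differences was not tested.

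Red pulp macrophage markers had 3 of 6 higher and 1 lower, Spic at 5.53, Adgre1 at 1.77 and Axl at 1.48 against Slc40a1 at -2.58. Each of Slc40a1 and Adgre1 has 2 measured probes, and the other probe gave -0.21 and 0.93, within 2-fold. Vcam1 was detected in 5/6Nx monocytes alone and Cd163 in neither, with sums of 108 and 206. Neutrophil markers had 3 of 7 higher and 1 lower, Ly6g at 4.53, Camp at 2.18 and Mpo at 1.36 against Elane at -1.66. With normexp Mpo came to 0.79, which leaves 2 higher. Cxcr2 was detected in 5/6Nx monocytes alone and Ngp and Ltf in neither, with sums of 253 and 298, of which Csf3r alone made up 241 and 287 and the other markers 11.7 and 10.8. All 13 monocyte markers were measured, 4 were higher and 2 lower, and the median was -0.26, or 0.17 with spike-in scaling. Fcgr1 stood at 2.63, Nr4a1 at 2.07 and Ly6c1 and Ly6c2, near-identical genes of the Ly6C antigen used in the sort, at 1.98 each. The lower genes were Cx3cr1 at -4.24 and Cd68 at -1.42, which came to -0.99 with spike-in scaling. The sums were 1500 and 1718, of which Lyz2 made up 733 and 511, Ly6c1 97.5 and 385, and Ly6c2 98.8 and 390. In these marker lists Prf1, Ebf1, Dpp4, Xbp1, Adgre1, Axl, Mpo and Elane were named after their values were seen. So were Siglech, Csf3r, Lyz2, Nr4a1, Ly6c1, Ly6c2 and Cd68. Among the target genes this holds for Tnf, Il12b, Prdm1, Klf4, Cd180, Nf1, Wdfy4 and Cst3.

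The genes that feed signals to the IRF factors differed unevenly. Among 22 adaptors, kinases and sensors that activate IRF3, IRF5 and IRF7, all measured, 7 lay at least 2-fold higher in 5/6Nx monocytes and none lower, and the median was 0.32. With normexp 6 were higher, as Tlr3 went from 1.18 to 0.46. Dimmer probes lay past 2-fold lower for Irak4, at -1.56, and for Irak2, at -1.11. The 2 probes of Cgas gave 0.98 and 1.79. The RNA sensors Ifih1 and Ddx58, which encode MDA5 and RIG-I, differed by 4.83 and 4.42, and Ikbke, a kinase of IRF3 and IRF7, by 2.22. Its relative Tbk1 differed by 0.27 and the adaptor of the RNA sensors, Mavs, by -0.98. Of 10 interferon receptor chains, Janus kinases and STATs, 4 were higher and none lower, with a median of 0.52. Stat2, which encodes a partner of IRF9 in ISGF3, differed by 3.43, the kinase Jak2 by 3.14 and Stat3 by 1.41. Their probes were unequal, with 1.93 and 3.43 for the 2 of Stat2 and 2.47 and 3.14 for the 2 of Jak2. The 3 probes of Stat3 ran from 0.91, under 2-fold, to 1.53, and the 2 of Ifih1 gave 3.24 and 4.83. The receptor chains Ifnar1, Ifnar2, Ifngr1 and Ifngr2 lay between -0.26 and 0.18, although the 4 probes of Ifnar1 ran from -1.26 to 0.32. Tlr3, Irak4, Irak2, Cgas, Stat3, Tbk1, Mavs and the receptor chains were picked after their values were seen.

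Partners that bind DNA with IRF4 and IRF8 had 5 of 12 measured genes higher and 1 lower (median 0.72). Among the measured genes the BATF factors had the largest differences, with Batf2 at 5.72, Batf3 at 4.28 and Batf at 1.66, and Spib was at least 7.27-fold higher and detected in 5/6Nx monocytes alone. Junb and Ikzf1 were also past 2-fold, at 1.57 and 1.01, the one lower gene was Jun at -1.0, and Spi1, which encodes PU.1, differed by 0.04. Ikzf1 and Jun lay at the edge of 2-fold, and with normexp 4 genes were higher and 0 lower, with Jun at -0.94, while Jun came to -0.57 with spike-in scaling. Batf3 was dim on the sham array, with a signal of 38.3, and differed by 2.96 with normexp. Proteins that bind or restrain IRF factors had 4 of 12 higher and none lower, with a median of -0.08 that was 0.35 with spike-in scaling. Usp18, a brake on the interferon receptor, differed by 7.26 and Socs1, an inhibitor of Janus kinases, by 6.10, or 6.22 and 5.71 with normexp. Trim21, a ubiquitin ligase that acts on several IRF proteins, differed by 2.72, and Peli1 by 1.56. The corepressors that bind IRF2, encoded by Irf2bpl, Irf2bp2 and Irf2bp1, differed by -0.91, -0.77 and -0.59. The other probe of Irf2bpl gave -1.61, past 2-fold lower, and the 3 probes of Cul1 ran from -1.65 to -0.49. With Junb, Ikzf1, Jun, Spi1, Peli1 and Cul1, these corepressors were also picked after their values were seen.

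**Figure D4:**
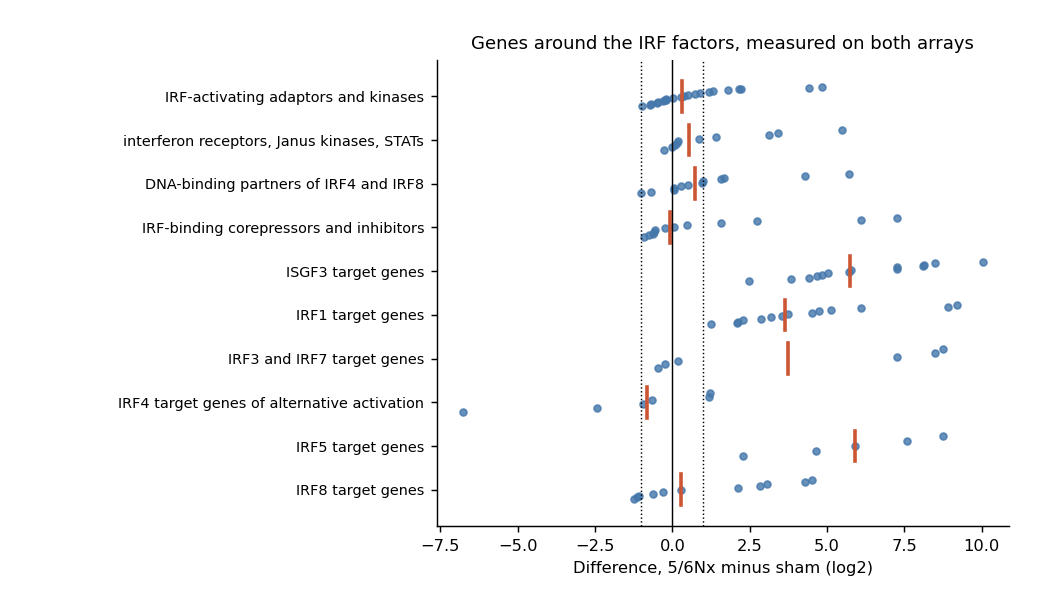
Difference between the arrays (5/6Nx minus sham, log2) of each gene measured on both arrays, for 4 lists of genes around the IRF factors and 6 lists of their target genes. Each point is a gene, the upright bar is the median of the list and dotted lines mark 2-fold; genes above background on 1 array only are not drawn. All points of the ISGF3, IRF1 and IRF5 target lists lie above 2-fold, while the IRF4 and IRF8 target lists hold points on both sides.

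Lists of textbook target genes were read in the same way, and several genes stand on more than 1 list. All 14 measured ISGF3 targets were higher by 2-fold or more (median 5.74), led by Oasl1 at 10.03, Ifit1 at 8.49 and Rsad2 at 8.13. These 3 were dim on the sham array, with signals of 33.5, 21.4 and 60.7. With normexp they came to 8.40, 6.53 and 7.16, and the median of the list to 5.30. The other 4 ISGF3 targets were detected in 5/6Nx monocytes alone, with Ifit3 at least 1202-fold and Ifit2 at least 411-fold higher. These bounds and those of the target genes below hold for the scanner's background correction only and were not recomputed with normexp. All 14 IRF1 targets were higher, with a median of 3.64, although Il12b and Il27 came to 0.89 and 0.93 with normexp, under 2-fold. Gbp2, a guanylate-binding protein, stood at 9.20, Nos2, which makes nitric oxide, at 8.90 and Socs1 at 6.10. With normexp Gbp2, Nos2 and Socs1 came to 8.02, 7.97 and 5.71. Of the IRF5 targets all 5 measured genes were higher, with a median of 5.89, led by Ccl5 at 8.73, Il1b at 7.57 and the IL-12 subunit Il12a at 5.89, with Tnf at 4.64 and Il12b at 2.28, the latter under 2-fold with normexp as above. The 3 probes of Il1b ran from 4.75 to 7.57. With normexp Il1b came to 6.71, and Il12a and the median of the list came to 4.69. Il6 was at least 394-fold higher and detected in 5/6Nx monocytes alone.

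Among the targets of IRF3 and IRF7, Ccl5, Ifit1 and Isg15 differed by 8.73, 8.49 and 7.27, and the chemokine Cxcl10 was at least 4687-fold higher. With normexp Ccl5, Ifit1 and Isg15 came to 8.55, 6.53 and 7.15. The interferon alpha genes Ifna1, Ifna2 and Ifna5, named after their values were seen, were dim on both arrays and differed by 0.18, -0.46 and -0.24. Their near-identical sequences mean that a probe may read several of them. Ifnb1, the interferon beta gene, was detected in 5/6Nx monocytes alone, at least 4.41-fold higher, and Ifna4 was detected in neither. Over the whole list, 3 of 6 measured genes were higher and none lower (median 3.73).

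Genes that IRF4 serves in alternatively activated macrophages had 2 of 6 measured genes higher and 2 lower (median -0.81). Arg1, the arginase, differed by -6.77, the mannose receptor Mrc1 by -2.44, the lectin Mgl2 by 1.21 and Prdm1 by 1.18. Detected in 5/6Nx monocytes alone were Il10, at least 51.7-fold higher, Ccl17, at least 2.42-fold, and Ccl22, at least 2.27-fold. With those genes at their bounds the median was 1.18. The genes of this list thus lay on both sides of 0. Genes linked to IRF8 had 5 of 11 higher and 3 lower (median 0.28). The class II regulator Ciita differed by 4.51, Batf3 by 4.28 and Cybb, the NADPH oxidase subunit, by 3.05, and Klf4 and Cd180 by 2.85 and 2.11. The lower genes were Nf1 at -1.23, Wdfy4 at -1.13 and Cst3 at -1.07. With spike-in scaling none of these was past 2-fold, at -0.80, -0.70 and -0.64, and the 5 probes of Nf1 ran from -1.23 to -0.09.

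Genes next to the IRF genes on the chromosomes were read as well. Of 16 nearest neighbours in the RefSeq table, 12 were measured. Of these, 1 was higher by 2-fold or more, against 12.3% of all measured genes, and none lower, against 10.9%. That one was Rnf31, a subunit of the linear ubiquitin ligase, next to Irf9, at 1.49. Slc22a5 next to Irf1 differed by -0.45, Phrf1 next to Irf7 by -0.29, and Dusp22 and Exoc2 on either side of Irf4 by -0.54 and 0.08. Rec8 on the other side of Irf9 differed by 0.33 and Cox4i1 beside Irf8 by -0.56. Around the 2 genes within 2-fold that have measured neighbours on both sides, Bcl2l12 and Scaf1 beside Irf3 differed by -0.23 and -0.57, and Kcp and Tnpo3 beside Irf5 by -0.07 and 0.51. Tnpo3, on the side of higher coordinates, overlaps Irf5 in the RefSeq table. Enpp6 beside Irf2 was detected in 5/6Nx monocytes alone, and Il5, Cdhr5 and Fendrr were detected in neither or have no probe.

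The promoter windows of the 8 genes in RefSeq (GRCm38.p6), from 250 bases before to 50 after a start site, were searched on both strands for 3 motifs. These were the core of the interferon-stimulated response element, GAAA, any 2 bases, GAAA, the gamma-activated site, TTC, any 3 bases, GAA, and an NF-kappaB type motif, GGGA, any 4 bases, CC. The 8 genes have 11 windows. The gamma-activated site was present for 3 of the 8 genes, Irf1, Irf2 and Irf8, and for 9.55% of 27025 genes with a window. The NF-kappaB type motif was present for 3, Irf1, Irf4 and Irf8, against 22.9% of all genes. The response element core was present for 1, Irf2, as GAAAATGAAA, against 3.99% of all genes. Irf3, Irf5, Irf7 and Irf9 held none of the 3 in these windows. The 250 bases before the first start of Irf1 and of Irf8 are shown because both hold gamma-activated sites while their differences were 4.45 and 0.24, and those of Irf7 because it had the largest difference of the 8 and no match. Capitals mark the motif matches.
Irf1 (chr11:53769764-53770013, plus strand): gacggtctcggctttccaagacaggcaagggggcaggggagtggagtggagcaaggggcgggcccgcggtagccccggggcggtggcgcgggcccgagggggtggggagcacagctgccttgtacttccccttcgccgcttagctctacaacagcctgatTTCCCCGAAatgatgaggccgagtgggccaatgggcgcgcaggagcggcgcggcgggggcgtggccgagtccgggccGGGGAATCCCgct
Irf8 (chr8:120736108-120736357, plus strand): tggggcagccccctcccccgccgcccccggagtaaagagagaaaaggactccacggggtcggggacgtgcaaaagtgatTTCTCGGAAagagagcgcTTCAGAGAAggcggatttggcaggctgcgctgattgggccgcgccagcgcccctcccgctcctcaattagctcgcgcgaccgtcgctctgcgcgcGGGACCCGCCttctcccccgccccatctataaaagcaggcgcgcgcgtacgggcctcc
Irf7 (chr7:141266425-141266674, minus strand): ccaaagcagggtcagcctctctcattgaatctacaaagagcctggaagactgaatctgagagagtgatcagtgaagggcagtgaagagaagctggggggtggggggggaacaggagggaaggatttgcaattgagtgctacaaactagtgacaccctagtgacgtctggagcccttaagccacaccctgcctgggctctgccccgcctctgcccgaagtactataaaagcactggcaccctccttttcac

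In the Irf1 window the gamma-activated site runs from base -90 to -82 and the NF-kappaB type match from -13 to -4. Irf8 has gamma-activated sites from -171 to -163 and from -153 to -145, an NF-kappaB type match from -58 to -49 and another after the start. A match is a description of the letters and not of binding.

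**Figure D5:**
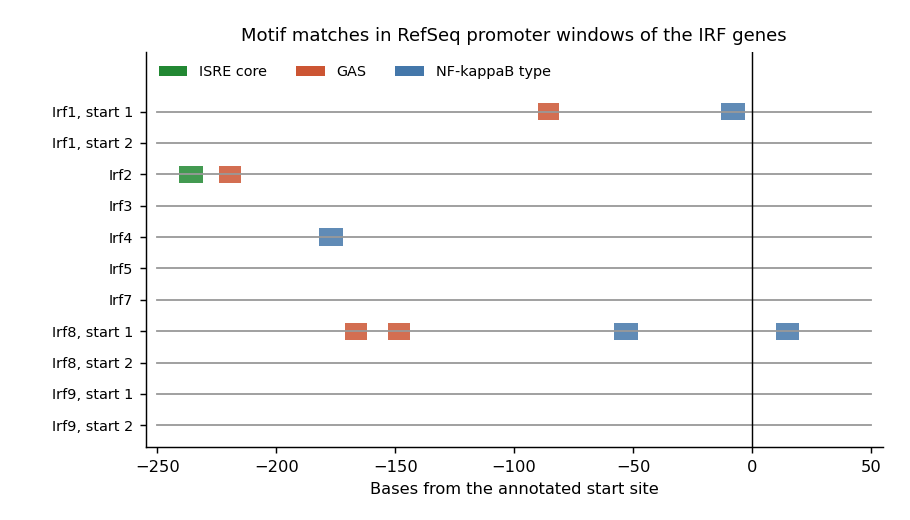
Matches to 3 motifs in the 11 RefSeq promoter windows of the 8 IRF genes, by distance in bases from the annotated start site (upright line). Windows of Irf1, Irf2, Irf4 and Irf8 hold matches, and those of Irf3, Irf5, Irf7 and Irf9 hold none.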

How the data were processed

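Each deposited scanner file lists linear intensities for 62976 spots from Agilent Feature Extraction, version 9.5.1.1 in the submitters' processing notes and 10.7.1.1 in the files' own parameter block. Per the file headers, a fitted spatial background was removed from these intensities and a multiplicative trend corrected within each array, with no scaling between arrays, and both arrays share a slide and a scan. The authors' deposited value table holds linear intensity values of all 16 IRF probes, with column medians of 47.5 (sham) and 48.2 (5/6Nx), on a linear scale, with differences 0.0032 from quantile-normalized ones at the median, while its normalization is not stated in the labels.

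Processed intensities were divided by their 75th percentile on the array (59305 spots without controls), 442.1 (sham) and 547.5 (5/6Nx), and put on the log2 scale. Of these spots 63.0% (sham) and 67.0% (5/6Nx) were well above background, and outlier-flagged spots (41 and 47) were dropped from both arrays. Genes were named through RefSeq and called measured if both arrays had one of their probes well above background, and the brightest such probe stands for the gene. A probe above background on 1 array has a bound, against the higher of its own dim signal and the lowest signal well above background, 12.8 (sham) or 13.7 (5/6Nx). The number of arrays limits the precision.

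The IRF genes, the lists and the alternatives were chosen with earlier results of these data known. The genes named from a list were to be its 3 measured genes (2 for markers) with the largest differences, the 2 largest bounds and, for markers, all genes above background on 1 array only, with exceptions stated; a few genes that the rule names are not reported here. With 2 arrays no gene could be matched to an IRF gene by its pattern. Python 3.11.15 and limma 3.58.1 (normexp with offset 50, loess) were used, and the steps were tested on simulated data. RefSeq names and promoters are of GRCm38.p6, whereas probe positions are on mm9, for which no exon or UTR annotation was used here.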

Additional observations from a re-analysis of the deposited data

How the results depend on the processing

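Under 11 alternatives (median, quantile, spike-in and loess scaling, normexp, the authors' value table, 2 looser filters on dim probes, 2 other choices of probe, and outlier spots kept) the number of IRF genes at least 2-fold higher was 5 in 10 settings and 6 with spike-in scaling, where Irf5 came to 1.02. The number at least 2-fold lower was 0 in all 11. The 2 looser filters and the kept outlier spots left every IRF value as in the main setting. They could not move these counts and are no check on them. The median over the 8 genes ran from 1.5 with median scaling to 2.08 with spike-in scaling. Irf1, Irf2, Irf4, Irf7 and Irf9 were at least 2-fold higher in each of the 11, with lowest values of 4.26, 1.27, 3.01, 7.26 and 1.67. Irf3 ranged from -0.33 to 0.25 and Irf5 from -0.53 to 1.02. For the lists, the IRF4 target median was -0.81 and turned to 1.19 without a filter on dim probes, where 6 of its genes were at least 2-fold higher in place of 2, and 4 with the looser filter. The IRF3 and IRF7 target list had 5 such genes in place of 3 without a filter, and the median of the IRF4 and IRF8 partners was 1.15 with spike-in scaling. The filters keep dim probes, and the cause of these moves was not tested. The bound of the dimmer Irf4 probe was 3.18 in log2 units and 1.27 with normexp. A bound thus depends on the background correction, and the bounds of the listed genes were not recomputed. No paired analysis was possible because each group has 1 array. Signal over background limits Irf4, whose sham signals were 32.1 and 8.75.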
